A study of Mus musculus with 12 samples.

Results

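Genes of fatty acid oxidation and its control by the nuclear receptor PPAR alpha were followed over heart and cerebrum of mice given phosphatidylserine (PS) or its vehicle. The set names 33 genes, and it was read from the rows of the deposited array table that carry a single gene symbol. Of the 33 genes, 30 were measured, in 33 of the 35556 transcript clusters (the array's unit for a gene or part of one). The remaining 3 genes, Acsl1, Cpt1b and Acadvl, were not analysed here, since no row carried their symbol alone. Fabp3, Hadhb and Ppargc1a had more than 1 row, and each is described by the row with the highest mean over all arrays.

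Long-chain fatty acids are the main fuel of the adult heart, whereas neurons oxidise them little and astrocytes do so more. Fatty acids enter the cell, are activated to acyl-CoA, cross the inner mitochondrial membrane as carnitine esters and are shortened by the repeated steps of the β-oxidation spiral, which pass electrons to the respiratory chain. PPAR alpha binds DNA with the retinoid X receptor at paired half-sites, is activated by fatty acids and, with the coactivator PGC-1 alpha, raises the transcription of many of these genes.

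All 12 arrays came from mice of strain C57BL/6J labelled with the genotype humanized knock-in IKBKAP FDloxP/+, a model of familial dysautonomia (FD), a hereditary disorder of the sensory and autonomic nervous system. The series asks whether PS, a membrane phospholipid, affects gene expression in these mice. From the age of 4 months, mice were gavaged on alternate days over 3 months with 100 µl of PS at 200 mg/kg or of medium-chain triglycerides (MCT), the control agent, which is itself a source of medium-chain fatty acids. No group without MCT or PS is among the samples. Each of the 4 groups (heart MCT, heart PS, cerebrum MCT, cerebrum PS) had 3 arrays, described as biological replicates. The labels disagree on the mice: the design names FD mice alone, the growth protocol also names wild-type mice, and every array carries the one FDloxP/+ label. They also disagree on whether the dose is per kg or per day.

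The median log2 intensity of an array was 4.89 to 5. Markers of ventricular cardiomyocytes averaged 11.7 to 12.1 per heart array and 5.18 to 5.33 per cerebrum array, and neuronal markers averaged 10.9 to 11.2 in cerebrum and 5.14 to 5.47 in heart. Expression of Xist, transcribed from the inactive X chromosome, gave a female pattern in all 3 heart PS arrays and in cerebrum PS 1 and PS 3, and a male pattern in all MCT arrays and in cerebrum PS 2. Treatment and sex pattern therefore cannot be told apart in heart, and in cerebrum they differ only in array PS 2. In bulk tissue, fewer cells of a type and less RNA per cell cannot be told apart. Array intensities depend on each probe, so differences are compared between genes here, and levels are not.

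In the MCT mice, every measured gene of the set was higher in heart than in cerebrum, and the transporter Cd36, which takes long-chain fatty acids into the cell, differed most. Its log2 intensity was 11.67, 11.65 and 11.63 in the heart arrays and 3.26, 3.60 and 3.37 in the cerebrum arrays. The difference was 8.24 ± 0.12 (SE, adjusted p = 1.66e-09), about 302-fold, and its size is approximate because the cerebrum mean lay below the intensity filter of 5.23. Of 29 genes tested with limma, 29 passed an adjusted p of 0.05, all of them higher in heart (Cd36, Ucp3 and Acacb reached the filter only through heart), whereas 35.2% of the 12734 transcripts tested were called higher in heart. The arrays of both tissues did not overlap for any of the 30 genes, against 36.9% of transcripts that did not overlap with heart higher. The median difference of the 30 genes was 3.18, and that of all tested transcripts was −0.07. Angptl4, which encodes a secreted inhibitor of lipoprotein lipase, was below the filter and was not tested; its difference was 1.64.

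**Figure D1:**
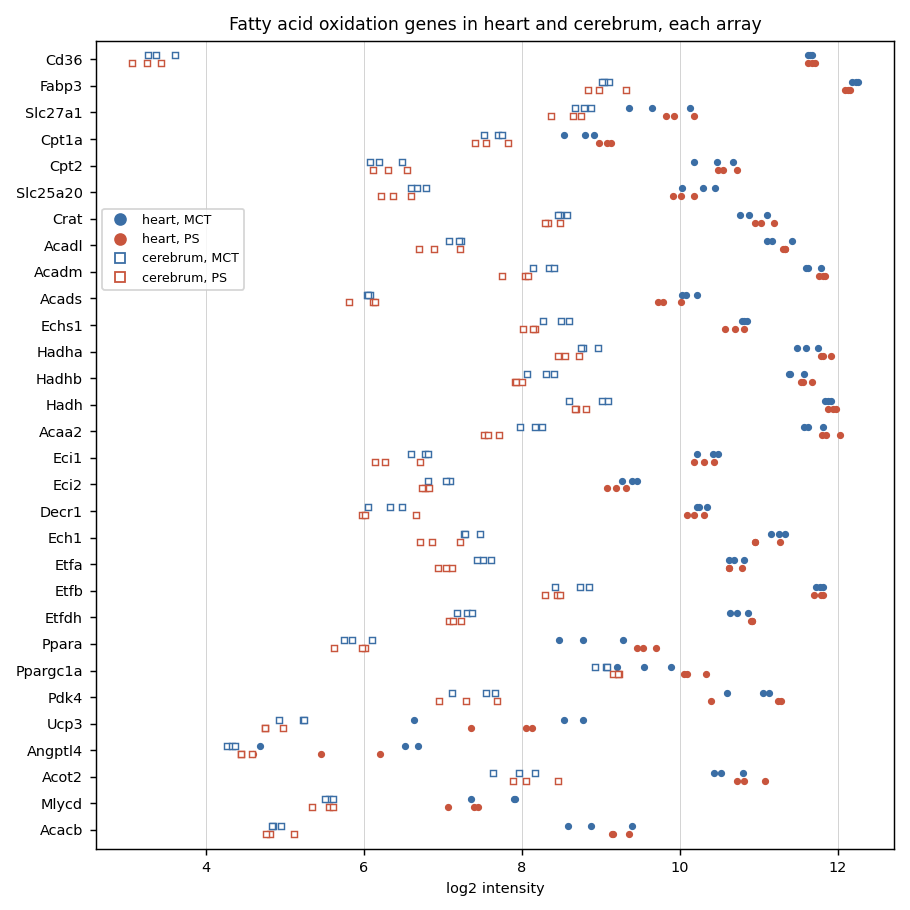
Log2 intensity of the 30 measured genes (rows) on each of the 12 arrays, with circles for heart and squares for cerebrum, and colours for MCT and PS. In every row all 6 heart arrays lie to the right of the cerebrum arrays of the same treatment, and the margin between the arrays was as small as 0.01, for Angptl4 under PS. Under MCT the difference of means was 8.24 for Cd36 and 0.52 for Ppargc1a.

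Among the genes of uptake, the cytosolic fatty acid carrier Fabp3 differed by 3.17 and the transport protein Slc27a1 by 0.94. Slc27a1 was 9.36, 9.65 and 10.13 in the heart MCT arrays and 8.87, 8.79 and 8.67 in the cerebrum MCT arrays. The heart arrays were thus more spread than the cerebrum arrays, and the lowest of them lay 0.49 above the highest cerebrum array.

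The carnitine shuttle moves long-chain acyl groups into the matrix. Cpt2, the inner-membrane carnitine palmitoyltransferase, was 10.18, 10.47 and 10.68 in heart and 6.19, 6.48 and 6.08 in cerebrum under MCT, a difference of 4.19 ± 0.16 (SE, adjusted p = 4.63e-08). Cpt1a, the form of the outer-membrane transferase known from liver, was 8.53, 8.92 and 8.80 in heart and 7.70, 7.75 and 7.52 in cerebrum. Its difference of 1.09 ± 0.13 (SE, adjusted p = 8.41e-05) was among the 3 smallest of the tested genes. The carnitine-acylcarnitine carrier Slc25a20 differed by 3.58 and carnitine acetyltransferase Crat by 2.41.

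The acyl-CoA dehydrogenases take the first step of each round of the spiral. The long-chain enzyme Acadl was 11.11, 11.17 and 11.42 in heart and 7.23, 7.2 and 7.08 in cerebrum, a difference of 4.06 ± 0.12 (SE, adjusted p = 1.22e-08). The short-chain enzyme Acads also differed by 4.06, and the medium-chain enzyme Acadm, which acts on acyl groups of the length that MCT supplies, by 3.37. In the later steps, the differences ran from 2.36 for the hydratase Echs1 to 3.55 for the thiolase Acaa2, with 2.78 and 3.19 for the trifunctional protein subunits Hadha and Hadhb and 2.98 for the dehydrogenase Hadh. The 4 enzymes that rearrange double bonds of unsaturated chains differed by 2.40 (Eci2), 3.65 (Eci1), 3.91 (Ech1) and 3.99 (Decr1). The subunits of the electron transfer flavoprotein, Etfa and Etfb, differed by 3.19 and 3.11, and its dehydrogenase Etfdh, which hands the electrons to ubiquinone, by 3.46.

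The regulators differed by unequal amounts between the tissues. Ppara, the gene of PPAR alpha itself, was 8.47, 8.78 and 9.28 in heart and 5.75, 6.10 and 5.85 in cerebrum under MCT, a difference of 2.94 ± 0.20 (SE, adjusted p = 1.8e-06). Ppargc1a, the gene of PGC-1 alpha, was 9.20, 9.55 and 9.89 in heart and 8.93, 9.06 and 9.08 in cerebrum. Its difference of 0.52 ± 0.17 (SE, adjusted p = 0.0217) was the smallest of the 29, and it missed the threshold without cerebrum MCT 1 (adjusted p = 0.0766) or without heart MCT 2 (adjusted p = 0.057). Its other row gave 0.82 (adjusted p = 0.00081).

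Genes of fuel choice followed. Acacb, the mitochondrial acetyl-CoA carboxylase whose product malonyl-CoA inhibits carnitine transfer, was 8.59, 8.87 and 9.40 in heart and 4.85, 4.95 and 4.84 in cerebrum, a difference of 4.07 (adjusted p = 1.54e-07) that is approximate because the cerebrum mean lay below the filter. Mlycd, which degrades malonyl-CoA, differed by 2.17. Pdk4, a kinase that switches off pyruvate dehydrogenase, differed by 3.48 and the mitochondrial thioesterase Acot2 by 2.66. The uncoupling protein Ucp3 differed by about 2.85, with a cerebrum mean of 5.13 that lay below the filter.

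Under PS the same tissue comparison gave 29 of 29 tested genes higher in heart, against 38.3% of transcripts called higher in heart. Again Cd36, Ucp3 and Acacb reached the filter, here 5.22, only through heart, so the sizes of their differences are approximate. The differences ran from 0.96 for Ppargc1a (adjusted p = 6.07e-05) to 8.42 for Cd36, with Angptl4 at 0.93 and not tested. The median of the 30 genes was 3.64, and that of all tested transcripts was 0.02.

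Related genes outside the set did not all share this direction. Of 19 measured genes on a list of other PPAR alpha targets, 10 were tested under MCT, and 8 were higher in heart and 2 lower, where 35.2% of all transcripts were called higher. The lipoprotein lipase gene Lpl differed by 4.47, the droplet proteins Plin5 and Plin4 by about 3.35 and 3.33, with cerebrum means below the filter, and the acyl-CoA synthetase gene Acsl5 by −1.32. Of 24 other mitochondrial acyl-CoA enzymes, 23 were tested, with 20 higher and 2 lower in heart. Among them Acad12 and Echdc3 reached the filter only through heart, and Cpt1c only through cerebrum. Of 13 tested acyl-CoA synthetases and carriers, 5 were higher and 6 lower, so that the share higher was near that of all transcripts. Here Fabp4 reached the filter only through heart and Acsbg1 only through cerebrum. Of 14 tested peroxisomal oxidation genes, 10 were higher and 1 lower.

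Promoter sequence was searched for the letters of nuclear receptor sites in the 300 bases from 250 before to 50 after each RefSeq start site (GRCm38.p6), on both strands. Of the 30 measured genes, 26 were matched, with 28 promoters; Acaa2, Angptl4, Crat and Decr1 were not. The PPAR element, half-sites in tandem with 1 base between them (AGGTCANAGGTCA), was found in 0 of the 26 genes and in 0.0396% of all 32851 promoters. With a free base in each half-site (AGGNCANAGGNCA) it was again in 0 of the 26 and in 0.381% of all promoters. The extended half-site of the oestrogen-related receptors (TCAAGGTCA) was in 0 of the 26 genes and 0.423% of promoters, and the glucocorticoid palindrome (GNACANNNTGTNC) in 0 of the 26 and 0.475%. The single half-site AGGTCA, which lies within the first and the extended motif and was searched after the 4 motifs gave no match, was in 6 of the 26 genes (Acacb, Acadm, Cd36, Cpt1a, Echs1 and Ucp3), and in 18.1% of the 27025 genes with a promoter. Elements farther from the start site lie outside this window.

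The 250 bases before the start site are given for Ucp3, the gene with more than 1 half-site and with a wide spread in heart, for Acadm, which acts on medium chains, and for Cd36, the gene that differed most between the tissues. They are written 5′ to 3′ on the gene's strand, and capitals mark a half-site, which reads TGACCT where it lies on the opposite strand. The Ucp3 sequence is chr7:100472741-100472990 (plus strand), with half-sites whose first base is at −149 and −44 from the start. The Acadm sequence is chr3:153944644-153944893 (minus strand), with a half-site at −249. The Cd36 sequence is chr5:17835897-17836146 (minus strand), with a half-site at −228.
Ucp3: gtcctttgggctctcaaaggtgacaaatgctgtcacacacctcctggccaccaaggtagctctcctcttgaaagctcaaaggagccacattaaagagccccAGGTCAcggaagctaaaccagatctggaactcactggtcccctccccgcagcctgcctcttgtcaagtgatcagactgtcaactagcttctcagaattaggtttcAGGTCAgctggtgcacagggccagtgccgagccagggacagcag
Acadm: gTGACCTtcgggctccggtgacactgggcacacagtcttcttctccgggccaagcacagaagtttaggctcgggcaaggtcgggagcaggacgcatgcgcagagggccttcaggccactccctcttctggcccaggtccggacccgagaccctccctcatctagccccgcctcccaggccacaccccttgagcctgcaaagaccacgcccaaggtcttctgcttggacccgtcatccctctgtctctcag
Cd36: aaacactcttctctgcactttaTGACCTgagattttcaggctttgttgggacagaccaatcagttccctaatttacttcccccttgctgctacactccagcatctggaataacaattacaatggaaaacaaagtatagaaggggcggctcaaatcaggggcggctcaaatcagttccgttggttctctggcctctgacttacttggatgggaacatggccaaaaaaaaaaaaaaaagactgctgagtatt

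For PS against MCT in heart, the comparison the series asks about in that tissue, no gene of the set passed the test, and the largest positive differences belonged to the receptor and its coactivator. Ppara was 8.47, 8.78 and 9.28 in the MCT arrays and 9.53, 9.46 and 9.70 in the PS arrays. The groups did not overlap, MCT 3 lay nearest to the PS arrays, and the means were 8.84 ± 0.41 and 9.56 ± 0.12 (SD, n = 3 each). The difference was 0.72 ± 0.20 (SE), with a limma adjusted p of 0.134. Ppargc1a was 9.20, 9.55 and 9.89 with MCT and 10.09, 10.06 and 10.33 with PS, again without overlap, a difference of 0.61 ± 0.19 (SE, adjusted p = 0.137). Its other row gave 0.42 (adjusted p = 0.17).

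All 30 genes were tested in heart, and 0 passed an adjusted p of 0.05, whereas 0.330% of the 12736 tested transcripts did. An unadjusted p under 0.05 was reached by 3 of the 30 (Ppara, Ppargc1a and Cpt1a) and by 23.7% of transcripts. The groups did not overlap for 5 genes with PS higher (these 3, Hadha and Etfdh) and for 2 with PS lower (Acads and Fabp3), against 17.2% and 11.2% of transcripts. Of the 30, 17 had a difference above 0 and 13 below, the median was 0.05, and that of all tested transcripts was 0.06. The count of 0 depended on array MCT 3: without it 4 genes passed, namely Ppara at 0.94 (adjusted p = 0.00865), Ppargc1a at 0.79 (adjusted p = 0.0155), Acacb at 0.49 (adjusted p = 0.0399) and Mlycd at −0.61 (adjusted p = 0.025), and the count of transcripts past the threshold went from 42 to 3416. In 1 fit over all 12 arrays Ppara (adjusted p = 0.0313) and Ppargc1a (adjusted p = 0.0278) passed, beside 1567 of the 12731 transcripts tested there. With array weights 17 genes of the set passed, beside 6987 of the 12736 tested transcripts, and these weights stopped before they converged.

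In the uptake and carnitine steps, Cd36 hardly varied: it was 11.67, 11.65 and 11.63 with MCT and 11.63, 11.67 and 11.71 with PS, and its difference of 0.02 had a 95% confidence interval of −0.22 to 0.26. Fabp3 differed by −0.09 and Slc27a1 by 0.26. Cpt1a was 8.53, 8.92 and 8.80 with MCT and 8.98, 9.13 and 9.08 with PS, a difference of 0.31 ± 0.14 (SE, adjusted p = 0.211). All PS arrays thus lay above the MCT arrays, the nearest by 0.06. Slc25a20 differed by −0.23, and Cpt2 and Crat both by 0.14.

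In the spiral, the signs were mixed and none passed. Hadha was 11.48, 11.60 and 11.75 with MCT and 11.79, 11.81 and 11.92 with PS, a difference of 0.23 (adjusted p = 0.275). Acaa2 was 11.58, 11.63 and 11.82 against 11.85, 11.80 and 12.03, and its groups overlapped (difference 0.22, adjusted p = 0.316). Acads was 10.08, 10.03 and 10.22 against 9.72, 9.79 and 10.02, a difference of −0.27 (adjusted p = 0.243), with PS lower in all arrays by a margin of 0.01. Acadl, Acadm and Hadhb had differences of 0.09, 0.14 and 0.14, Hadh of 0.05 and Echs1 of −0.13. All 4 genes for unsaturated chains were below 0, from −0.07 for Eci1 to −0.19 for Ech1, with Decr1 at −0.08 and Eci2 at −0.18. Etfa, Etfb and Etfdh differed by −0.03, −0.01 and 0.16.

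The classical fuel-switch targets of PPAR alpha were the most variable of the set in heart, and they were singled out after their values were seen. Ucp3 was 8.77, 8.54 and 6.63 in the MCT arrays and 7.35, 8.05 and 8.13 in the PS arrays. Angptl4 was 6.68, 6.52 and 4.68 with MCT and 4.59, 6.20 and 5.45 with PS. Pdk4 was 11.13, 11.05 and 10.60 with MCT and 10.40, 11.28 and 11.25 with PS. In all 3 genes MCT 3 was the lowest MCT array and PS 1 the lowest PS array, and the groups overlapped.

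The pooled SD within groups was 0.88 for Ucp3 and 0.97 for Angptl4, larger than in 99.7% and 99.8% of tested transcripts, and 0.41 for Pdk4, larger than in 93.8%. By contrast, the SD of Cd36 was 0.03 and exceeded that of 0.322% of transcripts, and the median over transcripts was 0.19. The differences with PS were −0.14 for Ucp3 (95% confidence interval −1.34 to 1.07), −0.55 for Angptl4 (−1.87 to 0.77) and 0.05 for Pdk4 (−0.54 to 0.64). Leaving out 1 array moved these values widely: Ucp3 ran from −0.81 (without MCT 3) to 0.26 (without MCT 1), Angptl4 from −1.19 (without MCT 3) to −0.14 (without PS 1) and Pdk4 from −0.11 (without MCT 3) to 0.34 (without PS 1), and none passed in these fits. With array weights Ucp3 (−0.68, adjusted p = 0.0255) and Angptl4 (−1.23, adjusted p = 0.0046) passed. Those weights stopped before they converged, and 6987 of the 12736 tested transcripts passed in that fit. Array MCT 3 also had the highest mean of the atrial markers in heart, 7.24 against 6.41 and 6.51 in the other MCT arrays and 6.16 to 7.02 in the PS arrays. These markers were not uniform: among the MCT arrays, MCT 3 was highest for Myl7, Myl4, Sln and Dkk3 and lowest for Nppa, Stard10 and Bmp10. Adipocyte markers were highest in MCT 1, at 6.23 against 5.34 to 5.81 in the other heart arrays. The part of either in these values was not tested.

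Mlycd was 7.90, 7.91 and 7.35 with MCT and 7.06, 7.39 and 7.44 with PS, a difference of −0.42 (adjusted p = 0.218) with overlap through MCT 3. Acot2 was 10.44, 10.52 and 10.80 against 10.73, 10.81 and 11.08 (0.29, adjusted p = 0.273). Acacb, at 8.59, 8.87 and 9.40 against 9.15, 9.14 and 9.36, differed by 0.26, with MCT 3 the highest of all 6 arrays. For Ppara, Ppargc1a, Acacb and Hadha alike, MCT 1 was the lowest and MCT 3 the highest MCT array. Ventricular cardiomyocyte markers had the same order in the MCT arrays, averaging 11.7 in MCT 1, 11.8 in MCT 2 and 12.1 in MCT 3, and 11.9 to 12 in the PS arrays. The rise over the MCT arrays was uneven. It was largest for Ttn (9.82, 10.27 and 11.05) and Ryr2 (10.23, 10.47 and 11.30), while Myl2 alone did not share the order (12.04, 12.05 and 11.98). Endothelial markers averaged 8.50 to 8.92 in the MCT arrays and 9.10 to 9.28 in the PS arrays. Fibroblast markers were above 0 with PS in 7 of 7, beside 57.8% of tested transcripts, with a median of 0.62. They averaged 9.23 in PS 2 against 7.27 to 7.71 in the other heart arrays. In limma 0 of 7 fibroblast and 0 of 10 endothelial markers passed an adjusted p of 0.05, against 0.330% of transcripts. An unadjusted p under 0.05 was reached by 1 fibroblast and 7 endothelial markers, and by 23.7% of transcripts. The part of these markers in the Ppara difference was not tested.

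**Figure D2:**
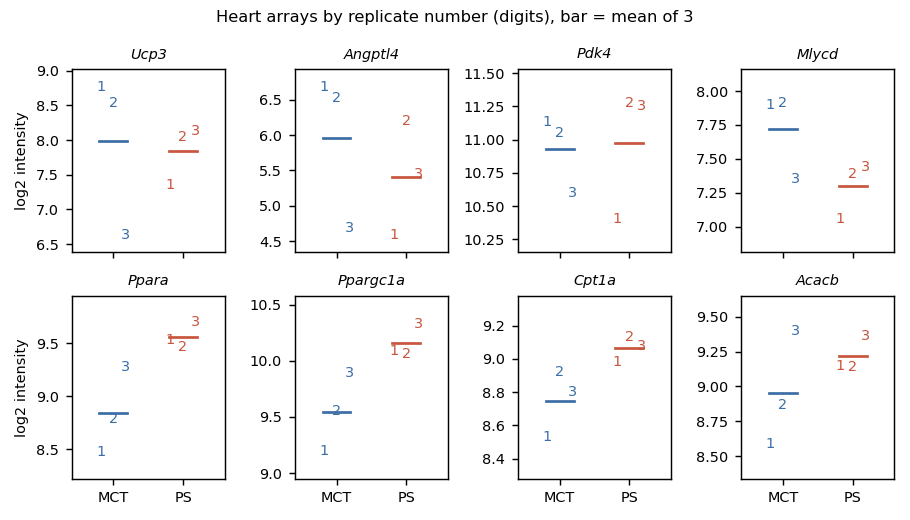
Log2 intensity in the 6 heart arrays for 8 genes, with digits for replicate numbers and bars for the group means; the vertical axes differ between genes. MCT 3 and PS 1 lie lowest in their groups for Ucp3, Angptl4 and Pdk4, while for Ppara and Ppargc1a the groups do not overlap and MCT 3 lies nearest to PS.

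For PS against MCT in cerebrum, 2 mitochondrial genes of the set fell, a share of the set near that of all transcripts, and 24 of the tested genes did not pass. Etfa, the alpha subunit of the flavoprotein that collects electrons from the acyl-CoA dehydrogenases, was 7.51, 7.61 and 7.43 in the MCT arrays and 6.94, 7.12 and 7.04 in the PS arrays. The groups lay 0.31 apart, and the difference was −0.48 ± 0.09 (SE, limma adjusted p = 0.0349), 1.4-fold lower with PS. Acaa2, the thiolase that releases acetyl-CoA in the last step of the spiral, was 8.17, 8.25 and 7.97 with MCT and 7.52, 7.57 and 7.71 with PS. It fell by 0.53 ± 0.10 (SE, adjusted p = 0.0371), 1.44-fold, again without overlap.

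Of the 30 measured genes, 26 were tested in cerebrum, and 2 passed, both lower with PS, against 5.76% of the 12733 transcripts (3.93% lower and 1.83% higher). Of the transcripts called, 31.7% were higher with PS, or 17.6% with arrays centred on their medians and 41.9% with quantile normalization. The genes below the filter of 5.04 were Cd36, Ucp3, Angptl4 and Acacb. An unadjusted p under 0.05 was reached by 8 of the 26 and by 29.0% of transcripts. The groups did not overlap for 8 genes with PS lower, against 20.4% of transcripts, and for 2 with PS higher (Ppargc1a and the untested Angptl4), against 12.4%. The shares called and with an unadjusted p under 0.05 are near those of all transcripts. Of the 30, 25 had a difference below 0 and 5 above, beside 6964 of the 12733 transcripts below 0, and the median was −0.17, against −0.03 for all tested transcripts. With arrays centred on their medians 26 of 30 were below 0, and with quantile normalization 25.

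Both calls were near the threshold and were lost in several fits. Without MCT 1, MCT 2, PS 1 or PS 2 neither gene passed, with adjusted p of 0.171, 0.138, 0.105 and 0.0565 for Etfa and of 0.172, 0.141, 0.111 and 0.0751 for Acaa2, although the differences stayed between −0.44 and −0.53 and between −0.47 and −0.61 in all leave-one-out fits. With the sex pattern as a covariate, the treatment term sets the single array PS 2 against the MCT arrays, a lone array assumed to vary like the others; it was −0.40 for Etfa (adjusted p = 0.09) and −0.56 for Acaa2 (adjusted p = 0.0675). In PS 2, the 1 PS array with the male pattern of the MCT arrays, Etfa was 7.12 and Acaa2 7.57, both below every MCT array.

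The other genes of the later spiral leaned the same way as Acaa2. Echs1 was 8.50, 8.60 and 8.27 with MCT and 8.16, 8.02 and 8.14 with PS (−0.35, adjusted p = 0.0815). Hadhb was 8.31, 8.41 and 8.06 against 7.91, 7.93 and 8.0 (−0.31, adjusted p = 0.103), and its other row gave −0.35 (adjusted p = 0.0795). Hadha was 8.78, 8.97 and 8.75 against 8.46, 8.55 and 8.72 (−0.26, adjusted p = 0.148). In all 3 genes PS lay below MCT in every array, and MCT 3 was the MCT array nearest to PS. Hadh overlapped, with a difference of −0.18.

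Ech1, an isomerase for unsaturated chains, was 7.27, 7.47 and 7.28 with MCT and 6.71, 7.21 and 6.86 with PS (−0.41, adjusted p = 0.102). Eci1 differed by −0.35, Eci2 by −0.21 and Decr1 by −0.07. Acadm was 8.35, 8.41 and 8.14 against 7.75, 8.04 and 8.08 (−0.34, adjusted p = 0.111), with the groups 0.06 apart. Acadl and Acads differed by −0.23 and −0.03. Etfb differed by −0.27 and Etfdh by −0.14, so that the 3 electron transfer genes were all below 0 and Etfa alone passed.

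Among the uptake, shuttle and control genes none passed in cerebrum. Slc25a20 was 6.78, 6.67 and 6.60 with MCT and 6.21, 6.59 and 6.37 with PS (−0.29, adjusted p = 0.139). Crat, Cpt1a and Cpt2 differed by −0.14, −0.06 and 0.07, Slc27a1 by −0.19 and Fabp3 by −0.01. Ppara was 5.75, 6.10 and 5.85 against 6.01, 5.98 and 5.62, with a difference of −0.03 and a 95% confidence interval of −0.35 to 0.29. Ppargc1a was 8.93, 9.06 and 9.08 against 9.23, 9.15 and 9.22, higher in all PS arrays, with a difference of 0.18 (adjusted p = 0.186); in its other row the groups overlapped, with a difference of 0.31 (adjusted p = 0.155). Pdk4 (−0.13), Acot2 (0.21) and Mlycd (−0.05) overlapped.

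Array by array, the median deviation of the 30 genes from the MCT mean was 0.04, 0.09 and −0.10 in the cerebrum MCT arrays and −0.25, −0.14 and −0.18 in the PS arrays. MCT 3 therefore lay closest to the PS arrays, with 26 of its 30 genes below the MCT mean, against 24, 20 and 23 in PS 1, PS 2 and PS 3. Over the 22 enzymes and carriers the PS medians were −0.33, −0.19 and −0.20. In heart the deviations were smaller, from −0.05 to 0.06 with MCT and from 0.05 to 0.12 with PS.

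**Figure D3:**
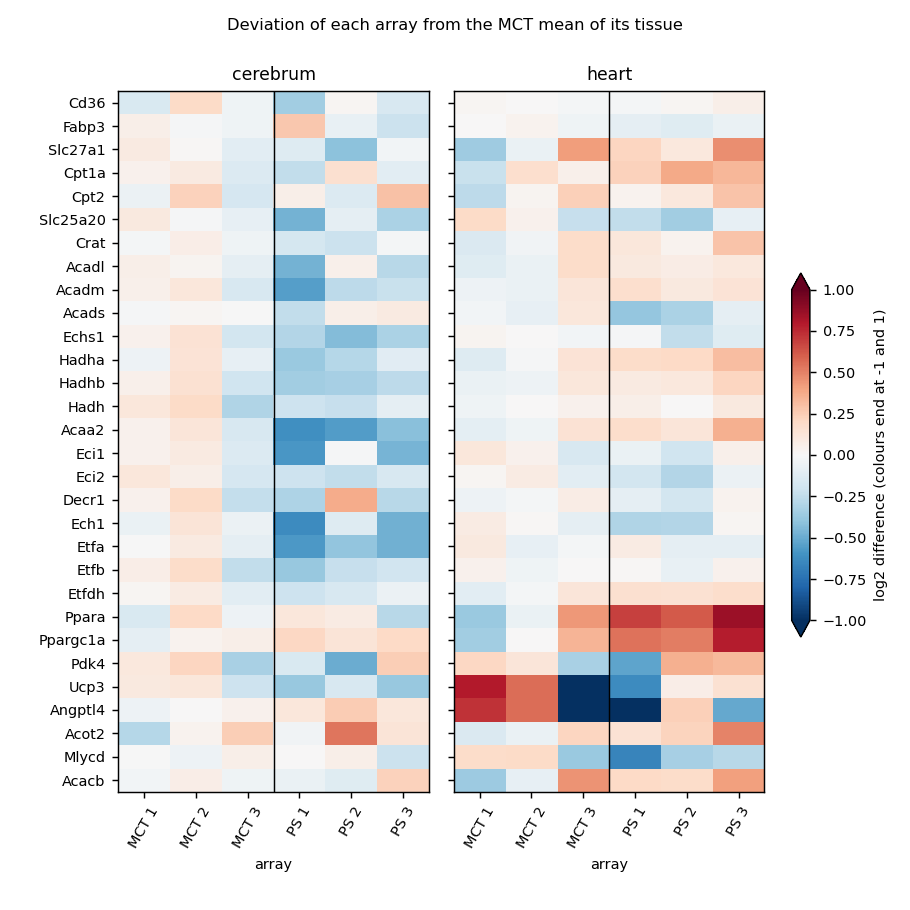
Log2 deviation of each array (columns) from the MCT mean of its tissue for the 30 genes (rows), in cerebrum and heart, with colours that end at −1 and 1. In cerebrum most enzymes are below the MCT mean in all PS arrays and, more weakly, in MCT 3; in heart the strongest colours belong to Ucp3 and Angptl4.

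Markers of oligodendrocytes and of the striatum, a subcortical region, also differed between the cerebrum groups. The 6 measured oligodendrocyte markers averaged 8.31 to 9.02 in the MCT arrays, with MCT 3 lowest, and 7.77 to 8.11 in the PS arrays. All 6 were below 0 with PS, beside 6964 of the 12733 tested transcripts. Of the 6, 3 passed, all lower, against 3.93% of transcripts called lower. The 8 measured striatal markers averaged 9.66 to 9.86 with MCT and 6.82, 6.92 and 8.99 in PS 1, PS 2 and PS 3. Of the 8, 3 passed, all lower, against the same 3.93% of transcripts. Astrocyte markers averaged 9.56 to 9.80 with MCT and 9.55 to 9.68 with PS, and 0 of 7 passed in limma. An unadjusted p under 0.05 was reached by 1 of the 7 and by 29.0% of transcripts. The part of these differences in the values of Etfa, Acaa2 and the other enzymes was not tested.

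Related lists in cerebrum gave few calls, in shares to be read against the 5.76% of all transcripts called (3.93% lower and 1.83% higher). All 24 measured genes of other mitochondrial acyl-CoA enzymes had a difference below 0, and 1 of 21 tested passed: Hibch, a hydrolase of valine breakdown, was 6.40, 6.36 and 6.19 with MCT and 5.66, 5.94 and 5.68 with PS (−0.56, adjusted p = 0.0374). The median of that list was −0.17, beside −0.03 for all transcripts. Of 13 tested peroxisomal genes 2 fell, namely Pex7, an import receptor, by 0.54 (adjusted p = 0.0277) and the enoyl-CoA reductase Pecr by 0.49 (adjusted p = 0.0443). Of 13 tested synthetases and carriers, 1 fell (Slc27a2, by 0.51, adjusted p = 0.0484), and of 8 genes of pyruvate entry, 1 fell (Pdhb, a subunit of pyruvate dehydrogenase, by 0.37, adjusted p = 0.0472).

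Of 8 tested other PPAR alpha targets, 1 fell: Lpl, which frees fatty acids from lipoproteins, was 7.15, 7.03 and 6.97 with MCT and 6.02, 6.37 and 6.64 with PS (−0.71 ± 0.15, SE, adjusted p = 0.0443). Plin4, at 4.61, 4.96 and 4.89 with MCT and 6.07, 5.16 and 6.55 with PS, reached the filter only through the PS arrays, and Pex11a differed by −0.38 (adjusted p = 0.053). Among 16 tested partners and coregulators, the corepressor Nrip1 rose by 0.47 (adjusted p = 0.0424), while Pparg (0.55, adjusted p = 0.0562), Prkaa1 (−0.33, adjusted p = 0.0509) and Rxrg (−2.80, adjusted p = 0.072) missed the threshold. Rxrg was 9.07, 9.18 and 8.89 with MCT and 5.29, 5.09 and 8.37 with PS, low in PS 1 and PS 2 as the striatal markers were. Among 12 tested genes of lipolysis and droplets, Pnpla2, the first lipase of triglyceride breakdown, rose by 0.46 (adjusted p = 0.0443) and Lpl fell. Each of these calls was lost without cerebrum MCT 1, where 0 transcripts passed.

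In heart these 7 lists had 0 genes past the threshold in limma, with 1 to 7 genes a list at an unadjusted p under 0.05, against 23.7% of transcripts. Without MCT 3 each list had 1 to 7 calls, the 7 being other mitochondrial acyl-CoA enzymes, all lower. With array weights, which stopped before they converged, each had 6 to 11. All transcripts called went from 42 of 12736 to 3416 without MCT 3 and to 6987 with array weights. The lowest adjusted p belonged to Pex11a (−0.59, adjusted p = 0.122), Esrra, an orphan receptor that works with PGC-1 alpha (−0.53, adjusted p = 0.123), Plin4 (0.81, adjusted p = 0.134) and Hibch (−0.56, adjusted p = 0.123). Genes known to be induced by glucocorticoids formed an eighth list, which does not hold Pdk4 or Angptl4. All 14 were above 0 in both tissues, and 2 of 14 tested passed in heart (Fkbp5 at 2.46 and Tsc22d3 at 0.84), against 0.330% of transcripts, and 4 of 13 in cerebrum, against 5.76%. With 1 array left out the counts ran from 1 to 13 in heart (13 without MCT 3) and from 0 to 5 in cerebrum. In heart 12 passed in 1 fit over all 12 arrays, beside 1567 of the 12731 transcripts tested there. Fkbp5 passed without any 1 of the 6 heart arrays, and Tsc22d3 kept its call in 1 of these 6 fits. Their mean was 7.98 to 8.39 with MCT and 9.09 to 9.21 with PS in heart, and 7.96 to 8.04 and 8.42 to 8.56 in cerebrum. The part of this difference in the values of the set was not tested.

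The difference between the PS effects of the tissues was tested over all 12 arrays, and Acaa2 alone of 29 tested genes passed, against 1.10% of 12731 transcripts called with heart above cerebrum. Of all transcripts called, 140 had the effect in heart above that in cerebrum and 54 below, or 251 and 43 with arrays centred on their medians. Its PS effect was 0.22 in heart and −0.53 in cerebrum, and the difference was 0.75 ± 0.16 (SE, adjusted p = 0.0434). The call was kept in 3 of the 12 fits that left out 1 array (heart MCT 3, cerebrum MCT 3 or cerebrum PS 3), and the adjusted p ran from 0.0115 to 0.125. An unadjusted p under 0.05 was reached by 7 of the 29 and by 19.2% of transcripts. After Acaa2 came Etfa (0.45, adjusted p = 0.114), Hadha (0.49, adjusted p = 0.117), Acadm (0.48, adjusted p = 0.134), Hadhb (0.45, adjusted p = 0.134) and Ppara (0.75, adjusted p = 0.148). Of the 30 genes, 25 had a difference above 0 and 5 below, with a median of 0.24, against 0.07 for all tested transcripts. The 5 below 0 were Fabp3, Acads, Decr1, Mlycd and the untested Angptl4. Without heart MCT 3, 7 genes of the set passed. The count of all transcripts past the threshold, 194 of 12731 in the main fit, ran from 3 to 1629 with 1 array left out. The 7 is therefore not read as a result about the set.

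**Figure D4:**
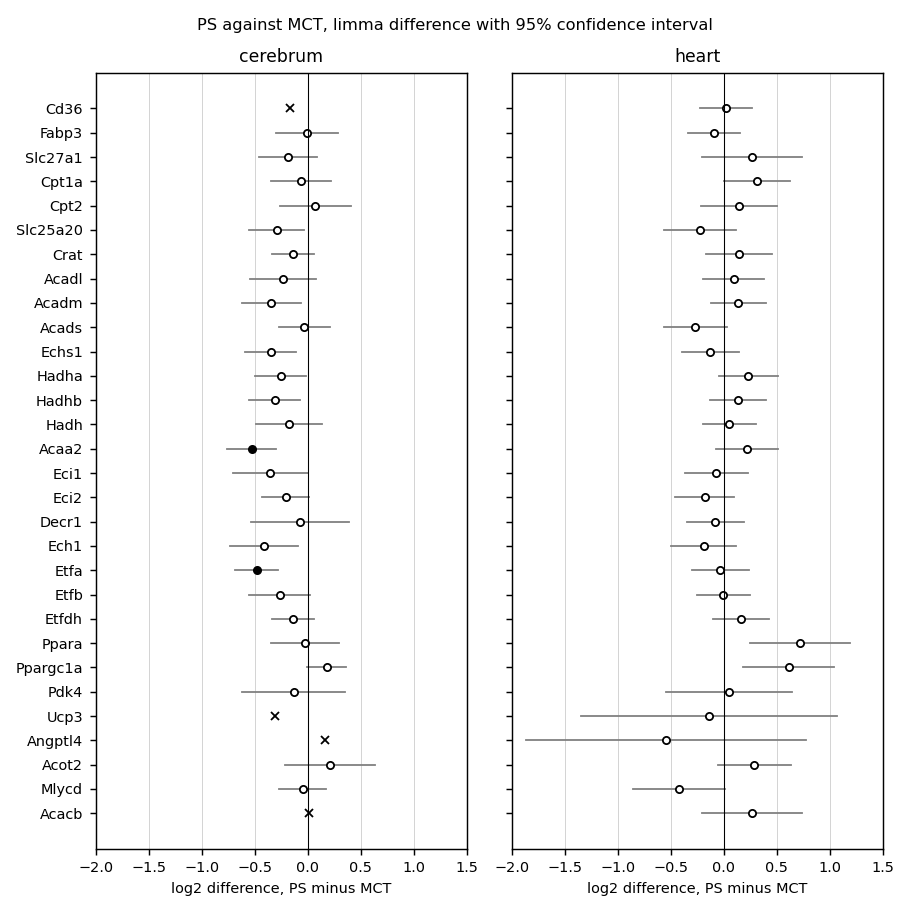
Log2 difference of PS minus MCT for the 30 genes in cerebrum (left) and heart (right), with 95% confidence intervals from limma; filled circles passed an adjusted p of 0.05 and crosses were below the filter. Etfa and Acaa2 in cerebrum are the filled circles, and the widest intervals are those of Ucp3 and Angptl4 in heart.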

How the data were processed

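Total RNA of cerebrum and heart was labelled with an Affymetrix kit for whole transcripts, as the labels' protocols say, and hybridised to arrays. The authors deposited 1 log2 intensity per transcript cluster and array, made, per the submitters' processing notes, in Affymetrix Expression Console. Not given in the sources used here are the software version, how background was corrected, how probes were summarised and the genome build. That the deposited values are log2 was read from their range. They were used without further scaling.

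Rows with 1 gene symbol were kept (21218 rows, 18820 symbols); 1881 rows with several symbols and 12457 with none were left out. Groups came from the labels, 3 arrays each, and their number limits the precision. The labels call the arrays biological replicates without tying each to a mouse, and p-values measure the spread between these arrays. Comparisons used limma 3.58.1 (lmFit, eBayes) in R 4.3.3 on rows whose mean reached the 40th percentile, with Benjamini-Hochberg adjustment over all of them and a threshold of 0.05. The fits were tested on simulated data.

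The members, the lists, the rule for naming genes and the tests were chosen with earlier results of these data known. Every gene of the set was named, with values per array for those past a threshold, the 8 with the lowest p in each PS comparison, the largest and smallest tissue differences and at least 1 gene of each role; of each related list, up to 4 genes with the lowest p. Array values of Ucp3, Angptl4 and Pdk4 fall outside that rule.

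Replicate numbers were checked by correlating deviations from the group means across transcripts. Same-numbered arrays correlated at 0.11, 0.10 and 0.29 between the tissues under MCT, and at 0.12, 0.10 and 0.05 under PS. Within heart they correlated at 0.03, 0.09 and 0.12 and within cerebrum at 0.11, −0.15 and −0.26. As labelled, number 2 under PS does not mark 1 mouse: Xist was 9.13 in heart PS 2 and 3.32 in cerebrum PS 2. By a limit of 0.1 in every pair, only the MCT tissues would count as paired. That limit separates 0.102 (number 2 under MCT) from 0.0978 (number 2 under PS), so it does not establish a pairing. The labels state none, and the main tests, including that between the tissues under MCT, used no block. Different-numbered MCT arrays correlated at 0.19 (heart 1, cerebrum 2) and 0.10 (heart 2, cerebrum 1), and the others from −0.25 to −0.15. The correlations therefore do not tell numbers 1 and 2 apart. Alternatives covered scaling, filters, rows tested, array weights, an intensity trend, blocks, the sex pattern and leaving out arrays.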

Additional observations from a re-analysis of the deposited data

Results flagged for a closer look

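For 3 genes among those described, the PS effect differed between heart and cerebrum in the limma test of that difference over all 12 arrays. Acaa2, the thiolase of the set, had a difference of 0.75 ± 0.16 (SE, adjusted p = 0.0434), and its adjusted p ran from 0.0234 to 0.0644 over the other settings tried and from 0.0115 to 0.125 with 1 array left out. Lpl, the lipoprotein lipase gene, had 0.94 ± 0.20 (SE, adjusted p = 0.0422), from a PS effect of 0.23 in heart and −0.71 in cerebrum; the call was lost in all fits without 1 array except those without heart MCT 3 or cerebrum PS 3. Fkbp5, a chaperone gene induced by glucocorticoids, had 2.07 ± 0.35 (SE, adjusted p = 0.0191), from 2.46 in heart; in cerebrum it was 6.55, 6.83 and 6.71 with MCT and 7.38, 6.37 and 7.51 with PS. Its call was lost without cerebrum MCT 1 (adjusted p = 0.0576) or cerebrum MCT 2 (adjusted p = 0.0632).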

How the results depend on the processing

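0 results changed sign while called, and of 1424 uncalled values of the set under the alternatives, 73 had another sign. In heart, the count of genes of the set past the threshold (0) became 17 with array weights, 2 in 1 fit over all 12 arrays, 1 without MCT 3 and PS 3 together and 0 to 4 with 1 array left out. Transcripts past it (42) became 17 with all rows tested, 6987 with array weights, 88 with a replicate block, 1567 over 12 arrays, 1176 without both arrays and 4 to 3416 with 1 array left out. In cerebrum, the 2 genes of the set became 0 with all rows tested, with a replicate block, with the sex pattern as a covariate and with male-pattern arrays only, 12 with array weights and 0 to 2 with 1 array left out. Transcripts (734) became 189 with all rows, 3407 with weights, 0 with the replicate block, 279 over 12 arrays, 1269 with male-pattern arrays only and 0 to 1557 with 1 array left out. With the sex pattern as a covariate or male-pattern arrays only, the PS arm is the single array PS 2, assumed to vary like the others. The median of the set in cerebrum ran from −0.29 (without MCT 3) to −0.14. Between the tissues under MCT, 9610 transcripts became 6396 at the 60th percentile, where fewer were tested. For the difference between tissues, 1 gene of the set became 0 with quantile normalization, all rows or the replicate block, 2 without heart MCT 3 and PS 3, and 0 to 7 with 1 array left out. Transcripts (194) became 294 with centred arrays, 1093 without both arrays and 3 to 1629 with 1 array left out, and the median (0.25 over tested genes) became 0.35 with weights and ran from 0.17 to 0.35 with 1 array left out. The replicate block changed no call of the set between the tissues under MCT. Whether the numbers pair the arrays there was not settled by the correlations, which did not tell numbers 1 and 2 apart. Beyond the rows tested and samples left out, the cause of these shifts was not tested. The weights stopped before they converged in 3 fits: PS against MCT in heart, heart against cerebrum under MCT, and the difference between the PS effects. The settings were also applied to the related lists, which was chosen after seeing the data.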
